A study of Mus musculus with 16 samples.

Results

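The tubulin isotype genes described here were the 10 genes Tuba1a, Tuba1b, Tuba1c, Tuba4a, Tubb2a, Tubb2b, Tubb3, Tubb4b, Tubb5 and Tubb6, 4 of them alpha and 6 beta, found by exact gene name among the 24394 genes named alike in both deposited count tables. Their messenger RNA was measured by sequencing in 16 libraries of mouse liver tissue, 4 per group. DKO livers combined ARID1A f/f with ARID1B f/f and Alb-Cre+, and their controls had both floxed genes with Alb-Cre-. BKO livers combined ARID1B f/f with Alb-Cre+, and their controls had ARID1B f/f with Alb-Cre-. Arid1a and Arid1b encode alternative subunits of a BAF chromatin remodelling complex, and the albumin promoter directs Cre to cells that express albumin, chiefly hepatocytes, so that liver cells that never expressed it keep the floxed genes. Neither the age of the mice nor the exons flanked by loxP sites is stated in the labels. The question set by this design is whether the tubulin genes, and the make-up of the family, differed between each knockout and its own controls.

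Alpha and beta tubulin pair into the dimers that polymerise into microtubules, the tracks of vesicle transport in hepatocytes and the fibres of the mitotic spindle. Each comes as several isotypes from separate genes, whose proteins differ mainly in the acidic tail at the carboxyl end, where modifying enzymes and microtubule binding proteins act. Cells also lower the stability of their tubulin messenger RNA when free dimers are in excess, so the genes are regulated together as well as singly. Tuba1a, Tubb2b and Tubb3 are best known from developing neurons, Tuba1b, Tuba1c, Tubb4b and Tubb5 from most tissues, and Tubb6 from non-neuronal cells.

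The isotype genes are so alike that their reads are partly interchangeable. On GRCm38, Tuba1a (chr15:98949837-98953703, minus strand), Tuba1b (chr15:98931425-98934565, minus) and Tuba1c (chr15:99029891-99038110, plus) are neighbours whose coding sequences were 97.1% to 98.3% identical. Tubb2a (chr13:34074274-34078007, minus) and Tubb2b (chr13:34126748-34130466, minus) were 96.5% identical. The last 60 coding bases, stop codon included, are shown for the Tubb2 pair to let a reader see how little separates these genes. Capitals mark bases that differ, position by position and without gaps, between them.
Tubb2a: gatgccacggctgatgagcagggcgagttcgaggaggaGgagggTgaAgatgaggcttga
Tubb2b: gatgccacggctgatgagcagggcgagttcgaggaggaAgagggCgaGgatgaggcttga
In this window the Tubb2 genes differed from each other at 3 bases.

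Of all 50-base windows of the coding sequence, 93.9% in Tuba1a, 95.6% in Tuba1b and 90.6% in Tuba1c also occurred in another annotated transcript. The same held for 60.05% in Tubb2a, 65.1% in Tubb2b and 61.1% in Tubb4b, where pseudogene transcripts were the partners of Tubb4b. Over whole transcripts, Tubb2a-ps2 held 18.8% of the 50-base windows of Tubb2a and 17.3% of those of Tubb2b, and Gm17383, an annotated pseudogene, 46.6%, 47.7% and 37.7% of those of Tuba1a, Tuba1b and Tuba1c. Tuba4a (chr1:75214228-75219865, minus), Tubb5 (chr17:35833921-35838306, minus), Tubb3 (chr8:123411424-123422015, plus) and Tubb6 had coding sequences of their own, with 2.39%, 0.0778%, 0% and 0% of windows shared. How the authors' counting treated reads that map to several genes, or reads of the opposite strand, is stated in none of the labels. The split of counts within Tuba1a, Tuba1b and Tuba1c and within Tubb2a and Tubb2b is therefore uncertain. Their sums, given below, still depend on reads shared with such pseudogenes and on whether reads shared between the summed genes were counted at all. Tuba4a overlaps Stk16 on the opposite strand, which held 47.7% of the 50-base windows of its transcript. Tubb4b (chr2:25222160-25224702, minus) overlaps Fam166a on the opposite strand, Tuba1b overlaps Gm41396 on the opposite strand and Gm49450, Tuba1a overlaps Gm49450, and Tubb3 overlaps Gm20388.

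Promoter windows are shown for 3 genes whose level or share differed most clearly in DKO livers and that had an entry among the RefSeq promoters of GRCm38.p6, from 250 bases before to 50 bases after the transcription start. Capitals mark matches on either strand to the GC box GGGCGG, the CCAAT box, the TATA box TATAAA, the TEAD motif CATTCC, the AP-1 motif TGANTCA and the cell cycle motif TTTGAA. No match overlapped another in these windows.
Tuba1b, chr15:98934341-98934640, minus: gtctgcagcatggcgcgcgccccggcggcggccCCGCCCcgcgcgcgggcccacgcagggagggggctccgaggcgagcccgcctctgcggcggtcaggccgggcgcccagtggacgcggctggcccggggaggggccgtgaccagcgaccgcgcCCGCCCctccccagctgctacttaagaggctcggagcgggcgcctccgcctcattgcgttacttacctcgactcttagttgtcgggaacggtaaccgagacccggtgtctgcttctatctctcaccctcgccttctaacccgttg
Tubb2a, chr13:34077959-34078258, minus: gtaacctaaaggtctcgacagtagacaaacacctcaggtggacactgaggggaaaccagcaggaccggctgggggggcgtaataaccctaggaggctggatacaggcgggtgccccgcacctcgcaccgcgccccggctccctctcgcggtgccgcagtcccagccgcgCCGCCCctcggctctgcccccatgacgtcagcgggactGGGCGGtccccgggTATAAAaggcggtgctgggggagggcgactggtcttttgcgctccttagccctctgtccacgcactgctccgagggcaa
Tubb5, chr17:35838252-35838551, minus: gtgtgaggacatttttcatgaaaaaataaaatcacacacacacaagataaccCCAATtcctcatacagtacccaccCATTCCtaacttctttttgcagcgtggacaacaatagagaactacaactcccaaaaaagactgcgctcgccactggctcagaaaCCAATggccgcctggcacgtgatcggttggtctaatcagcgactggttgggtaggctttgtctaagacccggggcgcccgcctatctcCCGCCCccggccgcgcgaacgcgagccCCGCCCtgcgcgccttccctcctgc
Over 8 member promoters, GGGCGG occurred in 7, against 35.7% of all 32851 promoters of this length. CCAAT occurred in 5 of 8, against 37.4% of all promoters, and TATAAA in 2 of 8 (Tubb2a and Tubb4b), against 13.6%. TTTGAA occurred in 1 of 8, against 17.9% of all, CATTCC in 1 of 8, against 14.7%, and TGANTCA in 0 of 8, against 7.81%. These matches describe letters and are not evidence of binding.

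Libraries of the DKO experiment held 8699417 to 11031443 counts, of which 1541 to 5336 were tubulin counts. Those of the BKO experiment held 21151726 to 40551934 counts, with 5681 to 14145 for tubulin. Arid1b was lower in BKO livers (44.3 ± 3.98 against 84.8 ± 2.01 CPM) and in DKO livers (60.03 ± 13.7 against 89.3 ± 9.17 CPM), with edgeR adjusted p = 0.00154 and 0.0167. Arid1a was at 108 ± 6.08 CPM in DKO livers and 124 ± 10.2 CPM in controls, with a log2 fold change of -0.20 that did not pass the test (edgeR adjusted p = 0.149). Levels are normalized CPM, that is counts scaled to a common library size after TMM, as mean ± SD over n = 4 libraries. Genes were called at an edgeR adjusted p under 0.05, and p-values measure the spread between libraries, which the labels tell apart by a tag such as DKO-7068 without saying that each tag is an animal, so part of it may be technical.

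In DKO livers, 4 of the 9 tubulin genes tested rose and 0 fell, namely Tuba1b and the beta isotypes Tubb2b, Tubb5 and Tubb6. Tubb2b passed the count filter only through the DKO libraries, where it was high, so its part in these counts is a description. Of all 12848 genes tested, 35.8% were called, 19.2% as higher and 16.6% as lower. The median log2 fold change was 0.86 over the tested members and 0.02 over all genes. Tuba1a, Tuba1c, Tuba4a, Tubb2a and Tubb4b did not pass the test, and Tubb3 was too low to be tested. CPM values did not overlap between the groups for the same 4 of the 9 tested genes, against 35.4% of all genes, 18.5% higher and 16.9% lower.

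**Figure D1:**
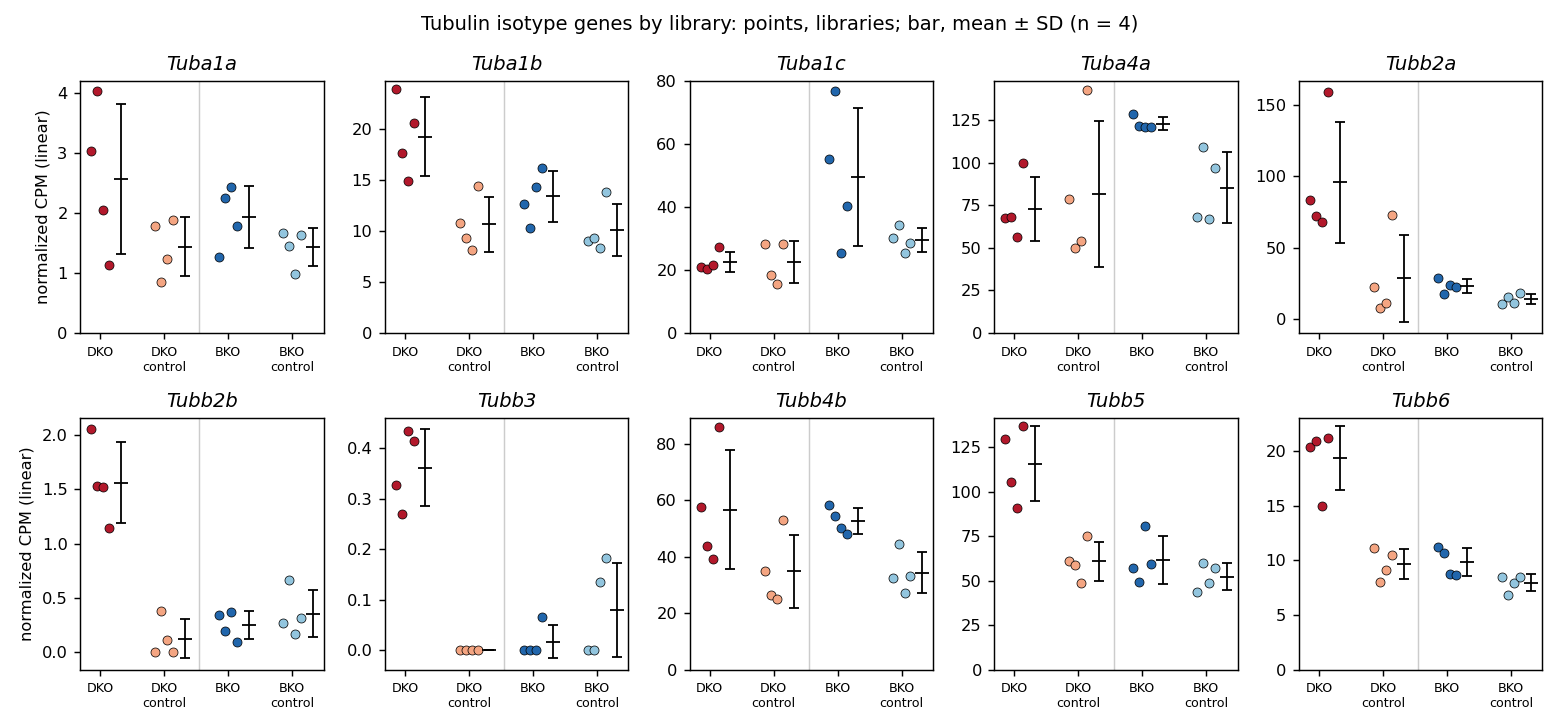
Normalized CPM of the 10 tubulin genes on linear axes, 1 point per library, with the mean ± SD (n = 4) beside the points of the DKO, DKO control, BKO and BKO control groups. Tuba1b, Tubb2b, Tubb3, Tubb5 and Tubb6 were separated between DKO livers and their controls, and Tuba4a, Tubb4b and Tubb6 between BKO livers and theirs.

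Tubb5, a beta isotype of most tissues, had 130, 106, 91.2 and 137 CPM in DKO livers DKO-7068, DKO-7070, DKO-7112 and DKO-7137, against 61.0, 58.6, 48.7 and 75.2 CPM in controls WT-7067, WT-7069, WT-7114 and WT-7139. Each DKO library was above each control. The log2 fold change was 0.93 (SE 0.16, edgeR adjusted p = 0.00156), 1.90-fold on mean CPM. Tubb6, an isotype of non-neuronal cells (chr18:67390717-67402749, plus), had 20.4, 20.9, 15.0 and 21.1 CPM in DKO livers, against 11.1, 8.02, 9.09 and 10.5 CPM in controls. All DKO libraries again lay above the controls, the lowest being DKO-7112, and the log2 fold change was 1.00 (SE 0.16, edgeR adjusted p = 0.000869).

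Tuba1b, an alpha isotype of most tissues, had 23.9, 17.6, 14.9 and 20.6 CPM in DKO livers, against 10.7, 9.36, 8.19 and 14.4 CPM in controls. The groups did not overlap, though DKO-7112 and WT-7139 lay close together, and the log2 fold change was 0.86 (SE 0.20, edgeR adjusted p = 0.00780). Tubb2b, known from developing neurons, was scarce, with 25, 17, 14 and 11 counts in DKO livers, against 0, 4, 1 and 0 counts in controls. Its mean level was 1.56 ± 0.375 CPM in DKO livers and 0.124 ± 0.180 CPM in controls, 12.6-fold apart. The fitted log2 fold change of 3.41 (SE 0.64, edgeR adjusted p = 0.00219) leans on controls near 0, and the gene passed the count filter through the DKO libraries. Tubb3, the isotype used as a neuronal marker, had 4, 3, 4 and 4 counts in DKO livers and 0 in each control. When 3 counts are allowed over the control group, its mean in DKO livers was 4.37-fold higher. That ratio rests on 15 DKO counts, whose own counting error it leaves out.

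Tubb2a, a major beta isotype of the brain, had 83.6, 72.2, 68.1 and 158 CPM in DKO livers, against 22.6, 7.64, 11.0 and 72.7 CPM in controls, so that WT-7139 lay above DKO-7070 and DKO-7112. The log2 fold change of 1.76 (SE 0.70) did not pass the test (edgeR adjusted p = 0.0875). Without WT-7139 it was 2.79 and passed (edgeR adjusted p = 0.00431). Within the earlier tag series, WT-7067 to DKO-7070, the log2 ratio of means was 2.36 with no overlap, and within the later one, DKO-7112 to WT-7139, it was 1.44 with overlap. The sum of Tubb2a and Tubb2b was 97.1 ± 42.2 CPM in DKO livers and 28.6 ± 30.0 CPM in controls. It does not depend on how counted reads were split between these 2 genes. It still depends on reads shared with Tubb2a-ps2 and on whether reads that fit both genes were counted, which is not stated.

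The remaining isotypes did not pass the test in the DKO comparison. Tubb4b, the main isotype of cilia and common in other tissues, had 57.8, 43.8, 39.1 and 86.1 CPM in DKO livers, against 34.9, 26.5, 24.9 and 53.0 CPM in controls, a log2 fold change of 0.71 (edgeR adjusted p = 0.110). Its 2 highest libraries were DKO-7137 and DKO-7068, and WT-7139 was the highest control. Of 19 alternatives 4 called it, with log2 fold changes of 0.97 without WT-7139, 0.87 with total counts, 0.68 in the fit of all 16 libraries and 0.70 without DKO-7137 and WT-7139 (edgeR adjusted p = 0.0295, 0.0347, 0.0497 and 0.0222), the last chosen after seeing the data. With the tag series as a term it was 0.70 and not called (edgeR adjusted p = 0.0863). Tuba1a had 3.04, 4.05, 2.06 and 1.14 CPM in DKO livers, against 1.79, 0.859, 1.23 and 1.89 CPM in controls. DKO-7137 lay below 3 of its controls, and without that library the log2 fold change was 1.09 (edgeR adjusted p = 0.0406), against 0.86 (adjusted p = 0.134) with it.

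Tuba4a and Tuba1c, the most abundant alpha isotypes by count, did not differ beyond the spread between libraries. Tuba4a had 67.8, 67.9, 56.2 and 99.9 CPM in DKO livers, against 78.8, 50.1, 54.2 and 143 CPM in controls (log2 fold change -0.16, SE 0.34, edgeR adjusted p = 0.758). Tuba1c had 20.9, 20.2, 21.6 and 27.3 CPM in DKO livers, against 28.3, 18.4, 15.5 and 28.3 CPM in controls (log2 fold change -0.01, SE 0.20, edgeR adjusted p = 0.986). The DKO values of both genes lay within the range of the controls, which was the wider of the 2, with WT-7139 the highest library for Tuba4a. With scaling by total counts alone, which moved the median of all genes to 0.20, their log2 fold changes were 0.02 and 0.17, so the sign depends on the scaling. The sum of Tuba1a, Tuba1b and Tuba1c was 44.3 ± 4.96 CPM in DKO livers and 34.7 ± 9.44 CPM in controls, with overlapping ranges.

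In BKO livers no tubulin gene was called among the 8 tested, while 0.583% of all 14061 genes were called in this comparison, 0.185% as higher and 0.398% as lower. All 8 fold changes lay above 0. The median log2 fold change was 0.49 over the tested members and 5.14e-05 over all genes. At an unadjusted p under 0.05 stood 5 of the 8 members and 1636 of all genes. The DESeq2 Wald test called 2 members and 356 of all genes, and limma with voom 0 members and 75 of all genes. CPM values of the groups did not overlap for 3 of the 8 members, Tubb4b, Tuba4a and Tubb6, each higher in BKO livers, against 7% of all genes, 3.64% higher and 3.36% lower.

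**Figure D2:**
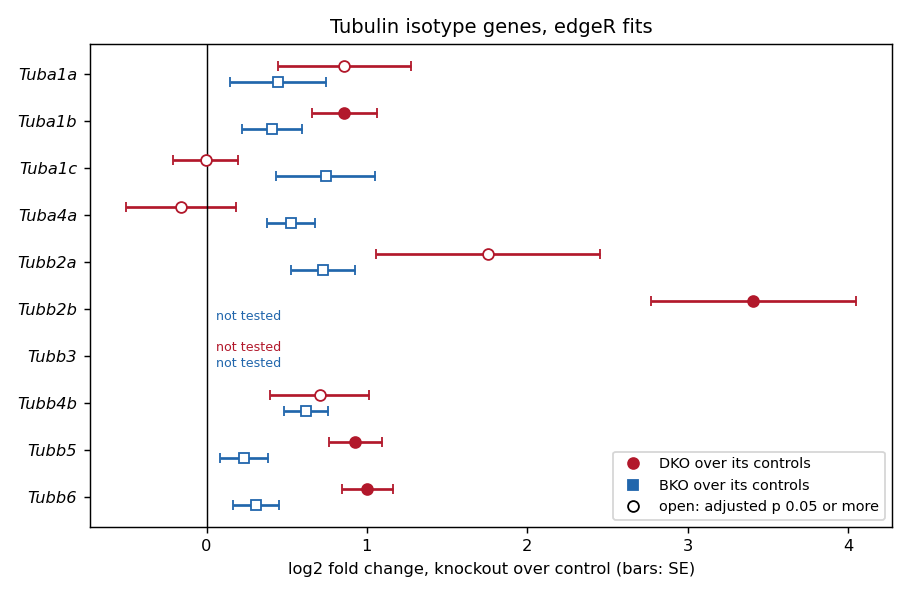
Log2 fold change of each tubulin gene, knockout over its own controls, from the edgeR fits (bars, SE), with DKO as circles and BKO as squares, filled where the adjusted p was under 0.05. The DKO values ran from -0.16 for Tuba4a to 3.41 for Tubb2b with 4 called, and the BKO values from 0.23 for Tubb5 to 0.74 for Tuba1c with none called.

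Tubb4b had 58.4, 54.4, 50.3 and 48.2 CPM in BKO livers F1, F3, F4 and F6, against 32.5, 44.7, 27.2 and 33.2 CPM in controls F2, F5, F5-2 and F7. Every BKO library was above every control. The log2 fold change was 0.62 (SE 0.14, edgeR adjusted p = 0.0739). It passed without F5 (0.77, edgeR adjusted p = 0.0212), with F5 and F5-2 summed to 1 library (0.66, edgeR adjusted p = 0.0144), with no filter (0.62, adjusted p = 0.0417) and in DESeq2 (0.62, adjusted p = 0.00685).

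Tuba4a had 129, 121, 121 and 121 CPM in BKO livers, against 68.4, 109, 67.3 and 96.8 CPM in controls. The BKO libraries were close together and all above the controls, and the log2 fold change was 0.53 (SE 0.15, edgeR adjusted p = 0.173). Tubb2a had 29.0, 17.5, 23.7 and 22.2 CPM in BKO livers, against 10.6, 15.8, 11.3 and 18.3 CPM in controls, with F3 below F7. Its log2 fold change was 0.73 (SE 0.20, edgeR adjusted p = 0.170), and DESeq2 called it (adjusted p = 0.0307).

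Tuba1c had 55.2, 77.0, 25.5 and 40.4 CPM in BKO livers, against 30.1, 34.4, 25.4 and 28.5 CPM in controls. The spread was within the BKO group, from F4 at the control level to F3, and the log2 fold change was 0.74 (SE 0.31, edgeR adjusted p = 0.413). Tubb6 was at 9.85 ± 1.29 CPM in BKO livers and 7.93 ± 0.780 CPM in controls, a log2 fold change of 0.31 (edgeR adjusted p = 0.437). Tuba1b, Tuba1a and Tubb5 had log2 fold changes of 0.41, 0.45 and 0.23, with overlapping groups and edgeR adjusted p from 0.422 to 0.631. Tubb2b, with 7, 8, 12 and 3 counts in BKO livers, against 9, 17, 5 and 7 counts in controls, fell under the count filter, as did Tubb3, with 0, 0, 0 and 2 counts in BKO livers, against 0, 0, 4 and 4 counts in controls.

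The DKO effect was larger than the BKO effect for 2 of the 9 members tested over all 16 libraries, where 22.5% of 14050 genes were called, 11% as a higher and 11.5% as a lower DKO effect. These were Tubb2b, with a difference of 3.94 on the log2 scale (SE 0.95, edgeR adjusted p = 0.00653) that leans on DKO controls near 0 in a gene too low to be tested in BKO livers alone, and Tubb6, with 0.66 (SE 0.21, edgeR adjusted p = 0.0278). Tubb2b passed the count filter only through the DKO libraries, where it was high, so its part in this count is a description. Tubb6 was no longer called, at differences of 0.58 to 0.64, when any one of DKO-7068, DKO-7070, WT-7069, WT-7114 or F6 was left out (edgeR adjusted p = 0.0519 to 0.0596). The difference for Tubb5 was 0.66 (SE 0.24) and missed the threshold (edgeR adjusted p = 0.0513), while 9 of 24 alternative settings called it. The difference for Tubb2a was 1.00 (SE 0.78, edgeR adjusted p = 0.394), called in 1 of 24 alternative settings. Differences of Tuba1c and Tuba4a had the other sign, -0.78 and -0.72 (edgeR adjusted p = 0.168 and 0.221), and Tubb4b differed by 0.05 (SE 0.36, edgeR adjusted p = 0.937).

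Summed over the 10 genes, the family was at 407 ± 106 CPM in DKO livers and 250.2 ± 105 CPM in controls, a ratio of 1.63. The totals were 409, 354, 310.0 and 553 CPM in DKO livers, against 249, 180, 173 and 399 CPM in controls, where WT-7139 was above DKO-7070 and DKO-7112. The difference in mean total lay in the beta sums, although the alpha gene Tuba1b was called higher on its own. Beta genes summed to 289 ± 83.0 CPM in DKO livers and 134 ± 53.8 CPM in controls, while alpha genes summed to 117 ± 22.8 CPM in DKO livers and 116 ± 51.2 CPM in controls. The alpha sums were 116, 110, 94.8 and 149 CPM in DKO livers, against 120, 78.8, 79.1 and 187 CPM in controls. The control mean of the alpha genes thus leans on WT-7139, the highest library. In BKO livers the family total was 335 ± 16.1 CPM, against 236 ± 41.3 CPM in controls, a ratio of 1.42 with no overlap between the groups. There both subfamilies had higher sums, with alpha genes at 188 ± 21.0 CPM in BKO livers and 127 ± 25.1 CPM in controls, and beta genes at 148 ± 14.9 CPM in BKO livers and 109 ± 16.3 CPM in controls. No p-value is attached to these sums.

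**Figure D3:**
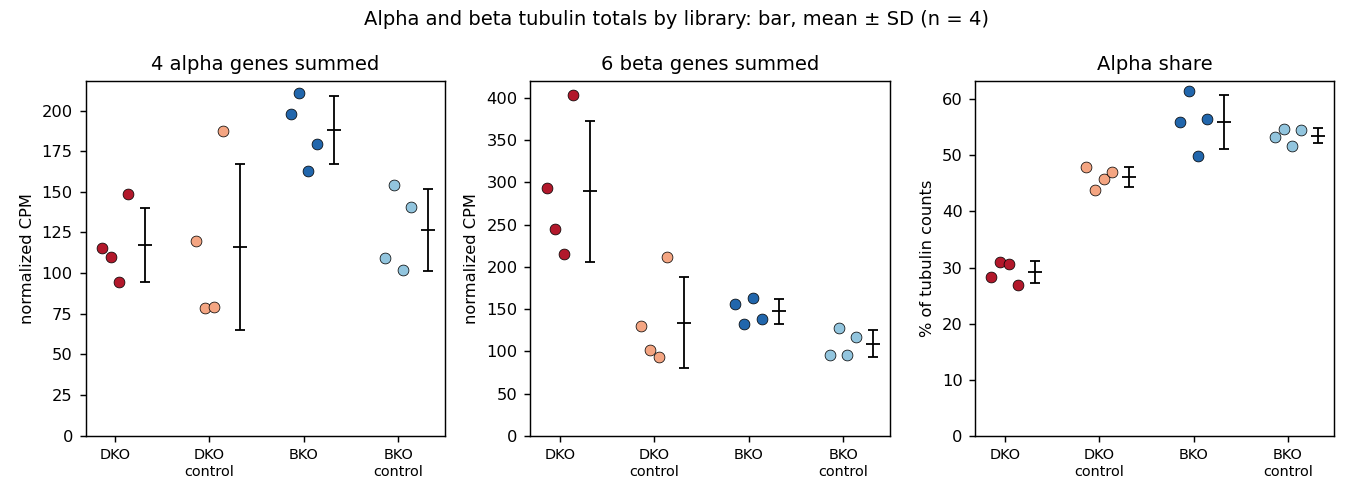
Summed normalized CPM of the 4 alpha genes (left) and the 6 beta genes (middle), and the alpha genes' percentage of tubulin counts (right), 1 point per library with mean ± SD (n = 4). The alpha percentage was 26.9% to 31.0% in DKO livers and 43.8% to 48.0% in their controls, while BKO livers and their controls overlapped.

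The alpha share of tubulin counts was 28.2%, 31.0%, 30.6% and 26.9% in DKO livers, against 48.0%, 43.8%, 45.7% and 47.0% in controls. These shares were closely grouped in both genotypes, although the totals of WT-7139 and DKO-7137 stood far from those of their groups. The mean difference of -16.9 points was -7.44 points when Tuba4a, the member with the largest mean share, was taken out of the counts. Per kilobase of exon the alpha share was 24.6% ± 2.55 in DKO livers and 40.9% ± 2.11 in controls. In BKO livers it was 55.9% ± 4.76 by count, against 53.6% ± 1.41 in controls, with F4 at 49.9% and F3 at 61.5% on either side of all controls.

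Within the DKO family, Tubb2a took 22.8% ± 3.94 of tubulin counts in DKO livers and 9.48% ± 6.16 in controls. The shares were 20.4% to 28.7% in DKO livers and 4.24% to 18.2% in controls, without overlap, and even WT-7139, whose Tubb2a level overlapped, kept a lower share. In an edgeR fit of all genes scaled to the tubulin total, Tubb2a was 1.26 higher on the log2 scale (SE 0.38, adjusted p = 0.00491) and no member was called lower. Tubb2b was also called, at 2.68 (SE 0.77, edgeR adjusted p = 0.00359), again against control counts at or near 0, and its shares overlapped, at 0.206% to 0.501% in DKO livers and 0% to 0.212% in controls. Here too it passed the count filter only through the DKO libraries. On this scale 41.4% of all genes were called, 4.33% as higher and 37.1% as lower. Without WT-7069 the call of Tubb2a was lost (1.02, edgeR adjusted p = 0.0580).

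Tuba4a took 18.0% ± 1.08 of tubulin counts in DKO livers and 31.7% ± 3.26 in controls, and Tuba1c 5.68% ± 0.921 in DKO livers and 9.41% ± 1.83 in controls. Neither share overlapped between the groups. Relative to the total, Tuba4a was at -0.82 (SE 0.37, edgeR adjusted p = 0.0612) and Tuba1c at -0.73 (SE 0.38, edgeR adjusted p = 0.0998), and both passed without WT-7139 (-0.75 and -0.85, edgeR adjusted p = 0.0202 and 0.0122). The counts relative to the total did not overlap for 3 of the 9 tested members, Tubb2a higher and Tuba4a and Tuba1c lower, against 23.5% of all genes, 3.23% higher and 20.2% lower. The shares of the remaining tested members overlapped between the groups. Tubb5 took 28.9% ± 2.95 in DKO livers and 26.0% ± 5.81 in controls, and Tubb4b 13.7% ± 1.49 in DKO livers and 14.1% ± 0.626 in controls. Tubb6 took 4.88% ± 0.847 in DKO livers and 4.20% ± 1.11 in controls, and Tuba1b 4.84% ± 0.865 in DKO livers and 4.46% ± 0.676 in controls.

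**Figure D4:**
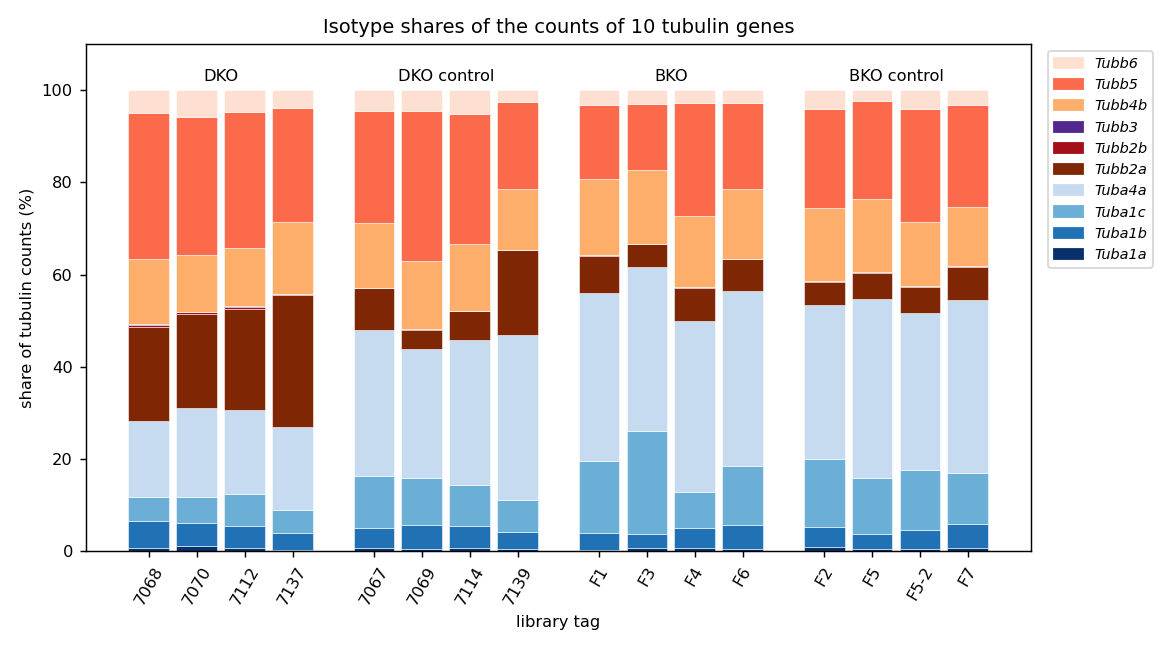
Percentage of the counts of the 10 tubulin genes taken by each gene, 1 stacked bar per library in the 4 groups, alpha genes in blues below and beta genes above. Tubb2a (brown) filled 20.4% to 28.7% of the DKO bars and 4.24% to 18.2% of their control bars, and Tuba4a (pale blue) 16.5% to 19.2% of the DKO bars and 27.9% to 35.8% of their control bars.

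In BKO livers no member was called relative to the total, where 50.7% of all genes were called, 0.22% as higher and 50.5% as lower. The shares of all 8 tested members overlapped between the groups, whereas 38.5% of all genes did not, 0.185% being higher and 38.3% lower. Tuba4a took 36.7% ± 1.10 of tubulin counts in BKO livers and 35.9% ± 2.59 in controls. Tubb5 took 14.3% to 24.7% in BKO livers and 21.2% to 24.7% in controls, and Tuba1c 7.79% to 22.5% in BKO livers and 11.0% to 14.7% in controls. Among BKO livers, F4 had the highest share of Tubb5 and the lowest of Tuba1c, and F3 the highest of Tuba1c. The widest 95% Wilson interval of a single share was 3.34 points in DKO livers, 4.63 in their controls, 2.22 in BKO livers and 2.52 in their controls, and these intervals cover counting error only.

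Levels of different genes are set side by side per length, here as CPM per kilobase of annotated exon. Coding 50-base windows shared with other transcripts ran from 0% in Tubb6 to 95.6% in Tuba1b, and the handling of shared reads is unknown. The length over which reads were counted may thus differ between genes, so the order describes counts per annotated length only. In DKO livers the order was Tubb2a at 59.4 ± 26.4, Tubb5 at 34.8 ± 6.35, Tubb4b at 27.2 ± 10.1, Tuba4a at 19.7 ± 5.07, Tuba1b at 10.3 ± 2.07, Tuba1c at 9.84 ± 1.40 and Tubb6 at 7.94 ± 1.20 CPM per kilobase. Tubb2a lay above Tubb5 in every pair of libraries, at 42.3 to 98.4 against 27.4 to 41.1 CPM per kilobase, whereas Tubb5 overlapped Tubb4b, Tubb4b overlapped Tuba4a, and Tuba1b overlapped Tuba1c. In their controls Tuba4a came first, at 22.0 ± 11.6, before Tubb5 at 18.3 ± 3.29, Tubb2a at 17.7 ± 18.7 and Tubb4b at 16.7 ± 6.17 CPM per kilobase, all overlapping. Then came Tuba1c at 9.89 ± 2.91, Tuba1b at 5.69 ± 1.43 and Tubb6 at 3.97 ± 0.566 CPM per kilobase, each of which overlapped the gene before it.

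The same limit holds for the BKO experiment. In BKO livers Tuba4a led, at 33.2 ± 1.05 CPM per kilobase, before Tubb4b at 25.3 ± 2.17, Tuba1c at 21.6 ± 9.60, Tubb5 at 18.5 ± 4.04 and Tubb2a at 14.3 ± 2.96. In their controls Tuba4a also led, at 23.1 ± 5.67 CPM per kilobase, before Tubb4b at 16.5 ± 3.53, Tubb5 at 15.7 ± 2.24, Tuba1c at 12.9 ± 1.64 and Tubb2a at 8.68 ± 2.29. In BKO livers Tuba4a (32.6 to 34.8) lay above Tubb4b (23.1 to 28.0 CPM per kilobase) without overlap, whereas Tuba1c reached 33.6 CPM per kilobase in F3, above Tuba4a in that library, and the genes from Tubb4b down to Tubb2a overlapped their neighbours. In the controls each of these genes overlapped the next. Tuba1a, Tubb2b and Tubb3 were lowest in all 4 groups.

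Genes that fold, modify or bind tubulin were read from 7 lists. Their counts in DKO livers stand beside 35.8% of all genes called, 19.2% as higher and 16.6% as lower. The CCT chaperonin and prefoldin, which fold new tubulin chains, had 0 of 14 tested genes called in DKO livers, and the tubulin folding cofactors 0 of 7, with median log2 fold changes of 0.05 and -0.11 beside 0.02 over all genes. Of the 3 genes of tubulin messenger RNA autoregulation, Ttc5, which recognises nascent tubulin chains, was at 8.64 ± 0.773 CPM in DKO livers and 6.33 ± 0.864 CPM in controls (log2 fold change 0.45, edgeR adjusted p = 0.0516). Cnot11, a subunit of the CCR4-NOT deadenylase, fell (log2 fold change -0.44, edgeR adjusted p = 0.0110). Scaper, also of this list, did not pass the test (log2 fold change 0.56, edgeR adjusted p = 0.0766). Of 2 other tubulin genes tested, Tubg1, the gamma-tubulin of nucleation sites, fell (log2 fold change -0.51, edgeR adjusted p = 0.0427).

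The counts of the next 3 lists stand beside 35.8% of all genes called in the DKO comparison, 19.2% as higher and 16.6% as lower, and nothing particular to the lists is read from them. Of 14 modifying enzymes tested in DKO livers, 2 rose and 4 fell. Vash1, which removes the last tyrosine of alpha-tubulin tails, rose (log2 fold change 1.09, edgeR adjusted p = 0.00323), as did Ttll3, a glycylase (0.91, edgeR adjusted p = 0.0178). Atat1, the alpha-tubulin acetyltransferase, fell (-0.80, edgeR adjusted p = 0.00330), as did Ttll5, a glutamylase (-0.53, edgeR adjusted p = 0.0160). Of 13 genes of the gamma-tubulin complex and nucleation, 3 rose and 1 fell, led by the spindle factor Tpx2 (3.47, edgeR adjusted p = 2.31e-05) and the augmin subunit Haus8 (1.45, edgeR adjusted p = 0.0296), with Tubgcp6 the one that fell (-0.40, edgeR adjusted p = 0.0320). Of 25 microtubule binding and dynamics genes, 9 rose and 3 fell. Map7d1, a microtubule binding protein linked to kinesin-1, was at 141 ± 12.2 CPM in DKO livers and 52.5 ± 2.64 CPM in controls (1.43, edgeR adjusted p = 8.20e-06), and Dclk1, a doublecortin-like kinase, at 2.75 ± 0.824 CPM in DKO livers and 0.139 ± 0.0577 CPM in controls (4.20, edgeR adjusted p = 9.22e-05). Stmn1 and Kif2c, also among the 9 that rose, were at 0.849 ± 0.446 and 0.587 ± 0.731 CPM in controls. Both of them, Dclk1, and in its own list Tpx2 (0.744 ± 0.229 CPM in controls), passed the count filter only through the DKO libraries, where they were high. Their part in these counts is a description. Mapre2, a plus-end binding protein, and Mapt, the tau gene, fell (-0.81 and -1.95, edgeR adjusted p = 0.00115 and 0.00126). In BKO livers 0 genes of these 7 lists were called. There the CCT chaperonin and prefoldin list had a median log2 fold change of 0.20, beside 5.14e-05 over all genes, and summed to 677 to 762 CPM in BKO livers and 562 to 649 CPM in controls, without overlap.

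Some lists of cell type markers differed in the DKO comparison, where 35.8% of all genes were called, 19.2% as higher and 16.6% as lower. All 10 proliferation markers rose, with summed levels of 103 to 183 CPM in DKO livers and 19.3 to 24.1 CPM in controls. With control levels this low, some of them may have passed the count filter only through the DKO libraries, so this count is a description. Of 8 stellate cell or myofibroblast markers 6 rose and 1, Lrat, fell (summed 1538 to 2340 CPM in DKO livers and 314 to 472 CPM in controls), and 5 of 8 macrophage markers rose (312 to 366 CPM in DKO livers and 209 to 338 CPM in controls). Among the macrophage markers that rose, Cx3cr1 and Ccr2 were at 0.695 ± 0.433 and 1.06 ± 0.733 CPM in controls. These genes passed the count filter only through the DKO libraries, where they were high, so their part in the count is a description. The 7 hepatocyte markers, abundant in every library, summed to 47017 to 73679 CPM in DKO livers and 108502 to 127373 CPM in controls. Of these, 5 fell, led by Cyp2e1 (log2 fold change -3.26, edgeR adjusted p = 3.14e-06), while the hepatocyte factor Hnf4a was at 842 ± 106 CPM in DKO livers and 957 ± 276 CPM in controls. Of 2 cholangiocyte markers tested Spp1 rose, and Sox9 did not differ (5.93 ± 4.14 CPM in DKO livers and 6.05 ± 2.36 CPM in controls). The 6 markers of that list summed to 67.04 to 846 CPM in DKO livers and 26.5 to 38.2 CPM in controls, without overlap. Most of these sums was Spp1, at 377 ± 331 CPM in DKO livers and 24.8 ± 3.02 CPM in controls. Krt19, Krt7, Epcam and Cftr fell under the count filter. Their means were 2.41, 0.874, 2.61 and 2.56 CPM in DKO livers, against 0.798, 0.763, 0.644 and 0.219 CPM in controls. Of 6 endothelial markers 1 rose and 1 fell. For the neuronal isotypes Tubb2b and Tubb3, the neuron or glia markers summed to 6.94 to 22.7 CPM in DKO livers and 8.71 to 26.6 CPM in controls, with Snap25 at 0 and 0 of 2 tested markers called. Lymphocyte markers summed to 3.04 to 6.48 CPM in DKO livers and 2.02 to 4.68 CPM in controls, none high enough to be tested, and 0 of 1 ciliated cell marker tested was called. The 5 ciliated cell markers, of interest beside Tubb4b, summed to 3.005 to 7.11 CPM in DKO livers and 1.79 to 2.58 CPM in controls, without overlap. In BKO livers 0 markers were called in any of the 9 lists, where the hepatocyte markers summed to 89034 to 109538 CPM in BKO livers and 84242 to 93188 CPM in controls, and the proliferation markers to 20.3 to 23.5 CPM in BKO livers and 11.7 to 21.5 CPM in controls. In whole-liver RNA, fewer cells of a type and less RNA per cell cannot be told apart, and the part of these cell types in the tubulin levels was not tested.

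The profile of the family total over the 16 libraries, each library relative to the mean of its own controls, was most closely followed by Tubb4b, itself a part of the total, with a root mean square difference of 0.118 on the log2 scale, first of 14050 genes. Among genes outside the family, Rab23 (0.174), Kpnb1 (0.180), Morf4l2 (0.209), Asph (0.236) and Prickle3 (0.246) came next. Rab23, a small GTPase, had log2 fold changes of 0.85 in DKO livers and 0.53 in BKO livers (edgeR adjusted p = 0.0301 and 0.254), and Kpnb1, the importin beta subunit, of 0.50 in DKO livers and 0.43 in BKO livers (edgeR adjusted p = 0.0689 and 0.194). Of the other members, Tuba1b was 9th and Tubb5 27th in closeness, while Tubb2a and Tubb2b ranked 10708 and 13474, far behind most genes.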

How the data were processed

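Per the labels' protocols, RNA came from TRIzol extraction and libraries from the NuGEN Ovation system. The authors deposited whole read counts per gene, not normalized, in 1 table per experiment. Per the submitters' processing notes the tools were HISAT2 2.1.0, featureCounts 1.6.2 and Trim Galore 0.4.1, and the builds GRCm38, mm10 and GRCh38 are listed there without a role. The sources used here give no annotation, strand setting or handling of shared reads. Date-like names stood in place of 27 gene names of the BKO experiment, and 0 columns were without a sample. All 10 members matched a GENCODE annotation on GRCm38 by symbol, which gave coordinates, exon lengths and coding sequences, and 8 matched a RefSeq promoter.

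The test was that of edgeR 4.0.16 in R 4.3.3 (robust quasi-likelihood fits, filterByExpr, TMM), run on the 8 libraries of each experiment, and on all 16 for the contrast of the 2 effects, with Benjamini-Hochberg adjustment over all genes. A standard error is the size of the log2 fold change over the square root of F. Shares are counts over the summed counts of the 10 members. Changes relative to the family come from the same fit with the tubulin total, which includes each member itself, as the library size. Alternatives were DESeq2 1.42.0 size factors or Wald test, limma 3.58.1 with voom, other scalings and filters, left-out libraries, summed libraries, a tag series term, and, for shares, lengths or a total without Tuba4a.

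In simulated DKO counts (12848 genes) edgeR found 16.4% of genes changed 1.5-fold, 53.7% at 2-fold and 89.4% at 4-fold, with 6.19% false calls. In simulated BKO counts (14061 genes) it found 34.3% at 1.5-fold, 62.7% at 2-fold and 93.9% at 4-fold, with 6.62% false calls. For the simulated difference (14050 genes) it found 7.46% at 1.5-fold, 47.8% at 2-fold and 84.8% at 4-fold, with 7% false calls. Each simulation changed 67 genes 1.5-fold, 67 genes 2-fold and 66 genes 4-fold, all drawn from genes above a set mean count. In the real DKO comparison 35.8% of genes were called, so these rates do not carry over to it. Tubb2b and Tubb3 had too few counts to be among the genes changed.

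The members and the 16 gene lists were chosen with earlier results of these data known. All 10 members were named, and of each pathway list up to 2 genes called in each direction by p, with Ttc5, of marker lists up to 2 members by p, and the 5 genes outside the family nearest to its total. Hnf4a, Scaper, Sox9, Krt19, Krt7, Epcam, Cftr, Stmn1, Kif2c and Ccr2 were named after their values were seen. Libraries are named by the tags in the labels. DKO-7068 and DKO-7070 were the closest pair, at a chi-square over degrees of freedom of 6.92, beyond sampling noise, and F5 and F5-2 had 65.8. Both pairs were kept as separate libraries. The labels do not say whether F5 and F5-2 share an animal.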

Additional observations from a re-analysis of the deposited data

Results flagged for a closer look

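Among 47 sets of 4 values checked for a library far from the other 3, 3 were found. Chance alone gives about 1 in 20 for separate sets of normally distributed values. That rate does not hold for counts at or near 0, and some sets are sums or shares of the same genes. Tuba4a in BKO livers had its highest library, F1, at 129 CPM, set apart from 121 CPM in each of the other 3, all above the controls. Tubb3 in BKO livers had its only counts, 2, in F6 (0.0652 CPM), so this set was flagged by construction. Tubb6 in DKO livers had its lowest library, DKO-7112, at 15.0 CPM, which was still above the highest control at 11.1 CPM.

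The DKO and BKO effects differed by the test of the difference for 2 members. Tubb2b differed by 3.94 on the log2 scale (edgeR adjusted p = 0.00653), with control counts at or near 0 in the DKO experiment. It passed the count filter only through the DKO libraries, where it was high. Tubb6 differed by 0.66 (edgeR adjusted p = 0.0278), and this call was lost when any one of DKO-7068, DKO-7070, WT-7069, WT-7114 or F6 was left out.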

How the results depend on the processing

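No paired analysis was possible because the libraries carry tags of their own, no tag is shared between groups, and the labels pair none. Tuba1b, Tubb5 and Tubb6 stayed called as higher in DKO livers under all 19 alternatives. Tubb2b did too, but it passed the count filter through the DKO libraries, where it was high, so this is a description. The number called higher was 4, ranged from 4 to 6 with 1 library left out, and was 7 with DKO-7137 and WT-7139 both left out, an alternative chosen after seeing the data. The sign turned for 2 uncalled DKO members: Tuba1c (-0.01) was 0.17 with total counts, 0.0376 with voom, 0.00822 without DKO-7137 and WT-7139, 0.0157 with DKO-7068 and DKO-7070 summed, also chosen after seeing the data, and -0.16 to 0.11 with 1 library left out. Tuba4a (-0.16) was 0.0206 with total counts, 0.0637 without both libraries, and -0.35 to 0.25 with 1 left out. Tubb2a in DKO livers was also called with voom (2.28, adjusted p = 0.0262), in the edgeR fit of all 16 libraries (1.73, adjusted p = 0.0271) and with the tag series as a term (1.89, adjusted p = 0.0286).

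The number called higher in BKO livers, 0, was 1 with no filter, 2 with the DESeq2 Wald test, 1 with F5 and F5-2 summed and 0 to 1 with 1 library left out. For the difference, the number higher was 1 to 4 and the number lower 0 to 1 with 1 library left out, and Tubb4b (0.05) ran from -0.22 to 0.32. Relative to the total in DKO livers, 1 to 2 members were higher and 0 to 2 lower with 1 library left out, and 2 lower when Tuba4a, the member with the largest mean share, was taken out of the total. The alpha share of DKO livers less that of controls, -16.9 points, was then -7.44 points. The cause of these changes was not tested, apart from the smaller total. Depth limits Tubb3 and Tubb2b, read from at most 25 counts per library.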
